A study of Homo sapiens with 11 samples.

Results

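Fibronectin and the matricellular proteins form a set of 7 secreted matrix genes, FN1, SPARC, TNC, THBS1, THBS2, POSTN and SPP1, out of 20249 genes that could be named on the array. Every probe that its RefSeq accession assigned to these genes was taken, which gave 9 of 42405 probes. THBS1 and THBS2 had 2 each and the others 1 each. Probes that could not be named by such an accession were left out, so further probes of these genes may be missing. The arrays addressed which pathways respond when TRIM58, an E3 ubiquitin ligase of the tripartite motif family, is overexpressed in lung adenocarcinoma cells. A549 and HCC827 are human lung adenocarcinoma cell lines. A549 mock (3 replicates on 4 arrays) and HCC827 mock (2 replicates) carried the empty retroviral vector pMXs-Neo, and A549 TRIM58-WT (3 replicates) and HCC827 TRIM58-WT (2 replicates) carried the same vector with FLAG-tagged wild-type TRIM58. All 4 groups had thus been infected and selected with G418, and the study worked with isolated clones of A549 and with uncloned HCC827 transfectants, so a difference between the A549 groups and one between clones cannot be told apart. Which clone is on which array is not given in the sources used here.

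Fibronectin is a large glycoprotein that cells assemble into fibrils through integrins, and the fibrils serve as a scaffold for other matrix proteins. Matricellular proteins are secreted into the matrix but mainly act as signals rather than as structure: they bind integrins, CD44, CD36 or CD47, hold growth factors, and alter how firmly a cell adheres. In lung tumours fibroblasts of the stroma are a well known source of fibronectin, periostin and SPARC, while osteopontin, tenascin-C and thrombospondin-1 can also be made by the carcinoma cells. RNA here came from cultured cell lines without added stroma.

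Levels are log2 signals with the 75th percentile of their own array subtracted, so 0 is the brightness of the probe at that percentile. A probe is called well above background where the scanner software marked more than 0.5 of its spots so, and otherwise at background. The 75th percentile itself lay between 56.6 and 125 signal units, and between 40.1% and 46.5% of probes were well above background on 10 arrays, against 50% on A549 TRIM58-WT 1. That array also stood apart from the other A549 TRIM58-WT arrays in several members below, and it was the only one of its group on slide 1. A549 TRIM58-WT 2 and 3 were on slide 2. Of the A549 mock arrays, 1-1 and 2 were on slide 1, and 1-2 and 3 on slide 2. The TRIM58 probe, whose place relative to the coding sequence in the vector was not analysed, was well above background on A549 mock 3 alone (-0.71) and on no TRIM58-WT array. It therefore does not check the labels. The methods of the study describe a check of TRIM58 protein in the transfectants by western blotting and immunostaining, which was not analysed here. Groups are named by their labels throughout. For the A549 changes of TNC, SPP1 and the main THBS1 probe, results without A549 mock 3 and without A549 TRIM58-WT 1 are also given. All 6 epithelial markers were well above background throughout A549 mock and both HCC827 groups. In A549 TRIM58-WT this held for 4 of 6, and KRT19, a simple-epithelium keratin, was at background on all 3. Of 5 lung epithelial markers, NKX2-1 and NAPSA were well above background throughout HCC827, SFTPB and SFTPC on some of its arrays and SLC34A2 on none. In A549 NKX2-1, SFTPB and SLC34A2 were at background throughout, and NAPSA and SFTPC were above it on some arrays. The summed linear level of the 5 was 0.401 to 0.97 in A549, 59.4 to 69.3 in HCC827 mock and 25 to 31.6 in HCC827 TRIM58-WT.

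The 3 members on which the results turn are TNC, THBS1 and SPP1, and the 250 bases before their RefSeq start sites (GRCh38.p14) are shown here so that their promoters can be compared. TNC lies on the minus strand (chr9:115118158-115118407), THBS1 on the plus strand (chr15:39580829-39581078) and SPP1 on the plus strand (chr4:87975464-87975713). Each sequence reads 5′ to 3′ towards the gene, and capitals mark matches to the searched motifs.
TNC: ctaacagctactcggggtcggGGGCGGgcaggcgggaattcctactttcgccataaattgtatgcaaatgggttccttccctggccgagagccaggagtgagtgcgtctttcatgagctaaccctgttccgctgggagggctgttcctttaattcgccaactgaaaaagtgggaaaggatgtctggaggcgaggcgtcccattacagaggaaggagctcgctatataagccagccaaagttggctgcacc
THBS1: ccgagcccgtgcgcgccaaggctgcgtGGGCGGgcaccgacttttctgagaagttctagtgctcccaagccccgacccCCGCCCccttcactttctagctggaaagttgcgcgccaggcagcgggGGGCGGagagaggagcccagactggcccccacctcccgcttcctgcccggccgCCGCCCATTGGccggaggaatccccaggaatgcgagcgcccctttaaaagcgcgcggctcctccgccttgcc
SPP1: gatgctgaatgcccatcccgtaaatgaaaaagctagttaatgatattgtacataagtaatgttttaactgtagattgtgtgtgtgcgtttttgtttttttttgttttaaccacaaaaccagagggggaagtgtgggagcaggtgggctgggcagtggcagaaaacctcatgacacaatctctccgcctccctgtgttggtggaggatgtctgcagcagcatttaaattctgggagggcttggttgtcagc

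Both strands were searched for the TATA box TATAAA and the GC box GGGCGG. The CCAAT box was searched as CCAAT. The AP-1 site was searched as TGANTCA. The cyclic AMP response element was searched as TGACGTCA. Among 35116 RefSeq promoters of the same length, 10.7% held a TATA box, 42.6% a GC box, 32% a CCAAT box, 6.57% an AP-1 site and 1.65% a cyclic AMP response element. The THBS1 window held 4 GC boxes and 1 CCAAT box on the opposite strand that directly adjoins a GC box, and its G and C content was 69.6%. The TNC window held 1 GC box at a G and C content of 54.8%, and the SPP1 window held none of the 5 motifs at 44.8%. All 7 members matched a promoter entry. The FN1 window held 6 GC boxes, some of which overlap, with 1 CCAAT box and 1 cyclic AMP response element. POSTN held 2 TATA boxes and 1 AP-1 site, THBS2 held 1 TATA box, and SPARC held none. The matches are a description of letters in these windows.

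TNC encodes tenascin-C, a large matrix glycoprotein known for its appearance in healing wounds and tumour stroma and for loosening adhesion to fibronectin. In A549 mock it lay at -3.35, -3.36, -3.38 and -3.58 on arrays 1-1, 1-2, 2 and 3, and on none of them was it well above background. In A549 TRIM58-WT it lay at 0.64, -1.58 and -1.38 in replicates 1, 2 and 3, well above background each time. The groups did not overlap, and replicate 1 was clearly the brightest of the 3. In HCC827 mock the level was 1.33 and 1.15, and in HCC827 TRIM58-WT 1.80 and 1.26, so these groups overlapped and all 4 arrays were brighter than any A549 array. The group means were -3.44 ± 0.12 (SD, n = 3) in A549 mock, -0.77 ± 1.23 (SD, n = 3) in A549 TRIM58-WT, 1.24 ± 0.13 (SD, n = 2) in HCC827 mock and 1.53 ± 0.38 (SD, n = 2) in HCC827 TRIM58-WT. The order of the groups was A549 mock, A549 TRIM58-WT, HCC827 mock and HCC827 TRIM58-WT, of which the last pair did not differ beyond its spread. A549 TRIM58-WT and HCC827 mock were not tested against each other.

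TNC rose in A549 TRIM58-WT against A549 mock. The measured difference was 2.66 on the log2 scale (SE 0.578, 95% interval 1.27 to 4.05, adjusted p = 0.0404 by limma). Because the mock group was not well above background, this corresponds to a TNC mean at least 4.34-fold higher. That bound uses the mean of the TRIM58-WT replicates, of which replicate 1 was the brightest, and is not a minimum for each replicate. On the log2 scale it is 2.12, which is above the lower end of the 95% interval. Within slide 1 the difference was 4 and within slide 2 it was 1.99. The call held without A549 TRIM58-WT 1 (1.96, adjusted p = 0.00484) and was lost without mock 1 (adjusted p = 0.151), mock 2 (0.138), mock 3 (0.0724), TRIM58-WT 2 (0.0704) or TRIM58-WT 3 (0.0973). It was also lost with TRIM58-WT 2 and 3 averaged as 1 replicate (adjusted p = 0.0827), with quantile normalization (0.0517), without the filter on dim probes (0.0975) and with another background correction that shrank the difference to 0.82 (0.129).

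THBS1 encodes thrombospondin-1, which binds CD36 and CD47, restrains angiogenesis and can activate latent TGF-beta. Its main probe was well above background on all 11 arrays. The A549 mock arrays 1-1, 1-2, 2 and 3 gave -0.50, -0.65, -0.71 and -0.10, and A549 TRIM58-WT gave 1.37, 0.92 and 0.82. Every TRIM58-WT replicate was brighter than every mock array, and replicate 1 was again the brightest. HCC827 mock gave -0.45 and -0.59 and HCC827 TRIM58-WT gave 0.42 and 0.06, likewise without overlap. The means were -0.46 ± 0.32 (SD, n = 3) in A549 mock, 1.04 ± 0.29 (SD, n = 3) in A549 TRIM58-WT, -0.52 ± 0.094 (SD, n = 2) in HCC827 mock and 0.24 ± 0.26 (SD, n = 2) in HCC827 TRIM58-WT. Both mock groups lay at nearly the same level and did not differ beyond their spread, followed upwards by HCC827 TRIM58-WT and A549 TRIM58-WT.

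THBS1 rose in A549 TRIM58-WT by 1.5 on the log2 scale, which is 2.83-fold (SE 0.241, 95% interval 0.92 to 2.08, adjusted p = 0.0170 by limma). The difference was 1.98 within slide 1 and 1.25 within slide 2. The call held without A549 TRIM58-WT 1 (1.34, adjusted p = 0.0263) and without mock 3 (1.68, adjusted p = 0.0103), and was lost without mock 1 (0.0946), mock 2 (0.0769), TRIM58-WT 2 (0.0704) or TRIM58-WT 3 (0.0653). It was also lost with TRIM58-WT 2 and 3 averaged (adjusted p = 0.0662), with median scaling (1.13, adjusted p = 0.0869) and without the filter on dim probes (0.0589). With the other background correction the difference fell short of 2-fold at 0.88, and the methods' t-test ended the call as well.

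The second THBS1 probe gave -3.61, -3.79, -3.70 and -2.61 on the A549 mock arrays, none well above background, and -1.34, -2.11 and -2.33 in A549 TRIM58-WT, all well above it. All TRIM58-WT replicates were again brighter than all mock arrays. Its difference of 1.41 (SE 0.398) did not pass the test (adjusted p = 0.0818), so the 2 probes differed in their call. In HCC827 it was well above background only on TRIM58-WT 1 (-2.55) and was not tested.

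**Figure D1:**
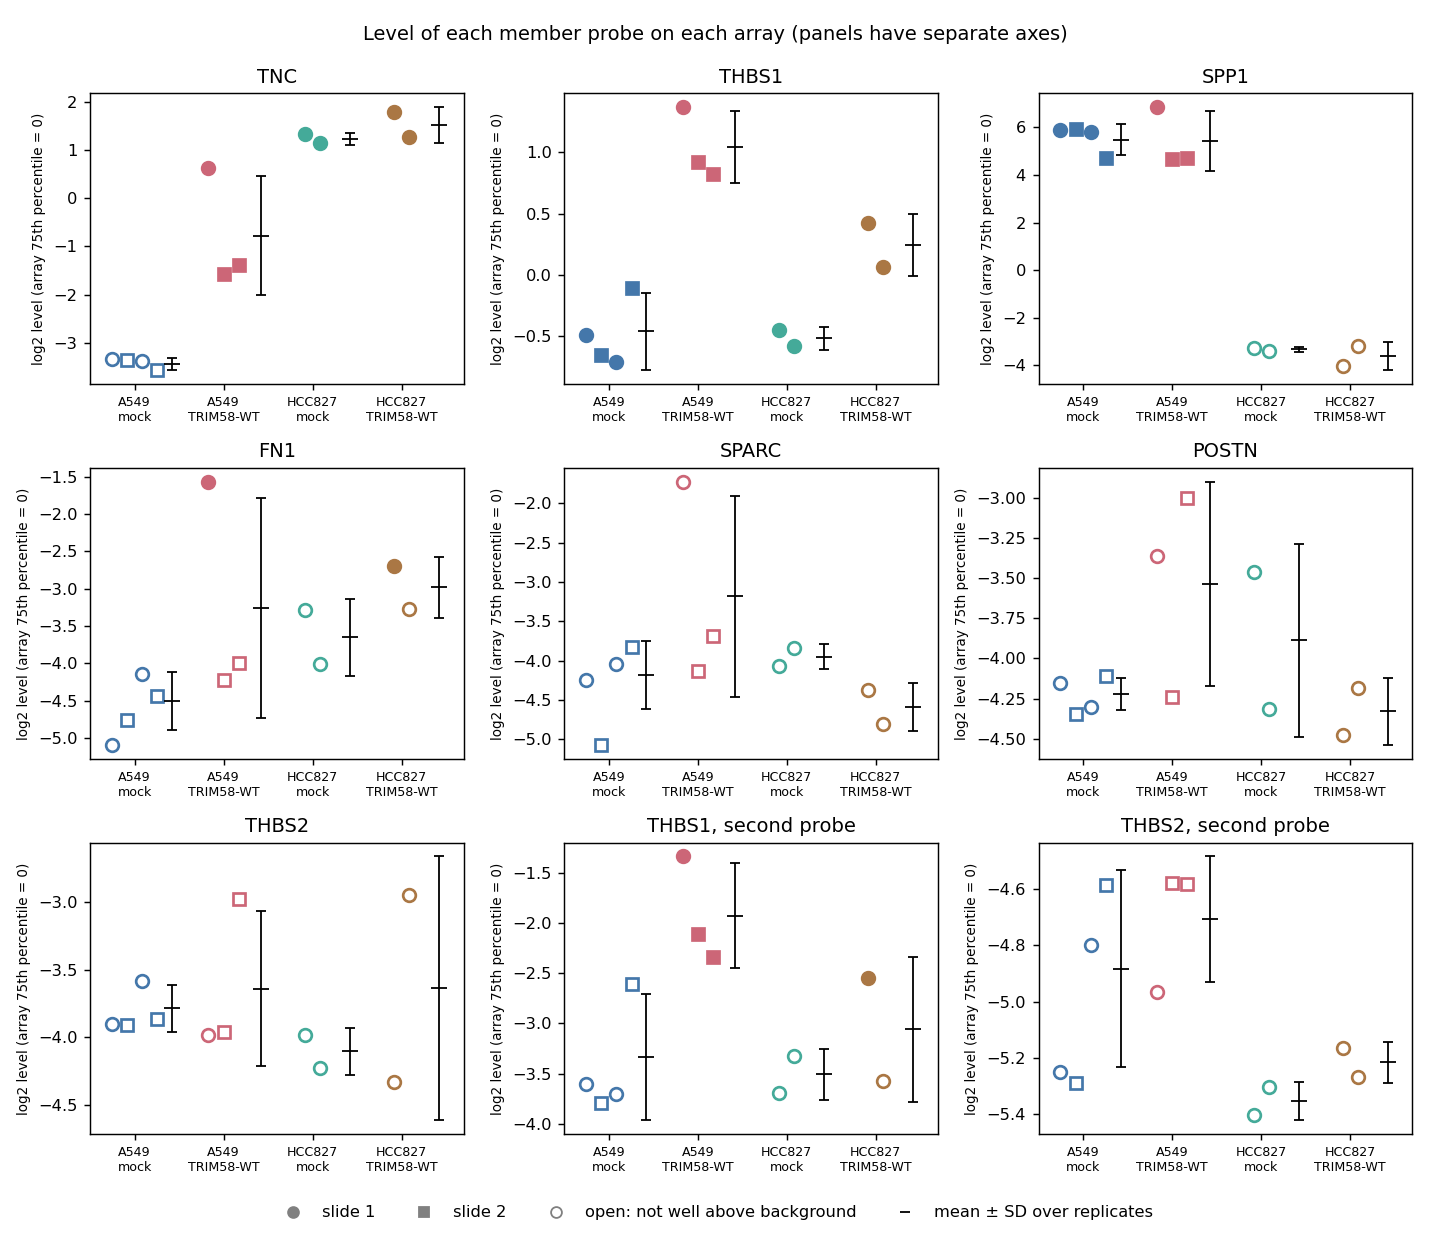
Log2 level relative to the 75th percentile of the array (vertical axis, a separate scale in each panel) for each of the 9 member probes in the 4 groups. Each point is 1 array, round on slide 1 and square on slide 2, filled where the probe was well above background, and the bar beside each group is the mean ± SD over replicates. TNC and THBS1 are higher in all 3 A549 TRIM58-WT replicates than in A549 mock, SPP1 is bright in A549 alone, and POSTN and THBS2 have open points throughout.

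Of the 7 members, 3 could be tested in A549, and 2 of them were called, both higher. TNC entered the test through the TRIM58-WT group alone, since the mock group was at background, so the count and its direction are given as a description. Over all genes tested in this comparison 7.93% were called, and 3.87% were called higher. The calls over all genes were 433 higher and 454 lower. With median scaling, which moved the median difference of all genes from 0.03 to -0.34, they were 209 higher and 639 lower, TNC was higher by 2.29 (adjusted p = 0.00517) and THBS1 lost its call. The groups did not overlap for 2 of the 3, against 33.9% of all genes tested. In HCC827 TRIM58-WT against HCC827 mock 2 members could be tested and limma called neither, with 1.07% of all genes called. At an unadjusted p under 0.05 there was 1, against 21.8% of all genes tested. It was THBS1, with a difference of 0.76 (SE 0.18, 95% interval 0.28 to 1.24, adjusted p = 0.137). The methods' t-test also called neither. TNC differed by 0.29 (95% interval -0.32 to 0.90, adjusted p = 0.495). THBS1 was the 1 member of 2 whose HCC827 groups did not overlap, a separation that 59.2% of all genes tested showed with 2 replicates a group.

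The change in A549 was not shown to differ from that in HCC827 for any member. Of 3 members tested for this difference limma called 0, with 4.61% of all genes called, and 1 had an unadjusted p under 0.05, against 20.8% of all genes tested. That was TNC, whose change was larger in A549 by 2.37 on the log2 scale (SE 0.822, adjusted p = 0.167), a value that rests on the dim A549 mock level. Without A549 TRIM58-WT 1 the TNC difference was 1.67 (SE 0.285, adjusted p = 0.0187) and passed the test. It did not pass without mock 3 (2.30, adjusted p = 0.162). For THBS1 the difference was 0.74 (95% interval -0.07 to 1.55, adjusted p = 0.314).

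SPP1 encodes osteopontin, a phosphorylated ligand of CD44 and of integrins, known in lung adenocarcinoma as a secreted product of tumour cells and macrophages. A549 mock gave 5.89, 5.94, 5.80 and 4.72 on arrays 1-1, 1-2, 2 and 3. A549 TRIM58-WT gave 6.87, 4.68 and 4.72. The groups overlapped, with replicate 1 above all mock arrays, and mock 3 at the level of TRIM58-WT 2 and 3. HCC827 mock gave -3.26 and -3.40 and HCC827 TRIM58-WT -4.03 and -3.18, and none of these was well above background. The A549 means were 5.48 ± 0.66 (SD, n = 3) in mock and 5.42 ± 1.25 (SD, n = 3) in TRIM58-WT.

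SPP1 differed between the lines. It was called higher in A549 mock than in HCC827 mock, at least 419-fold (measured difference 8.80 on the log2 scale, SE 0.675, adjusted p = 1.93e-05 by limma), and 9.18 without mock 3. Within A549 the TRIM58-WT groups differed from mock by -0.05 (95% interval -1.64 to 1.53, adjusted p = 0.972). The sign differed between slides, at 1.03 within slide 1 and -0.63 within slide 2. Mock replicate 1, which was on both slides, gave 5.89 on slide 1 and 5.94 on slide 2. Slide 1 held TRIM58-WT 1 alone of its group, and slide 2 held mock 3. Without A549 TRIM58-WT 1 the difference was -0.78 (adjusted p = 0.216) and without mock 3 it was -0.44 (adjusted p = 0.714).

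The SPP1 probe was spotted 10 times on each array, which shows how much of this spread lies within an array. On the A549 arrays the SD over the spots used ranged from 0.0273 on mock 3 to 0.209 on mock 2 on the log2 scale. The spots of A549 TRIM58-WT 1 lay between 6.48 and 7.07 and those of TRIM58-WT 2 between 4.61 and 4.78, so the replicates differed by far more than the spots of one array did. On the HCC827 arrays, near background, the SD over spots was 0.279 to 0.499.

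**Figure D2:**
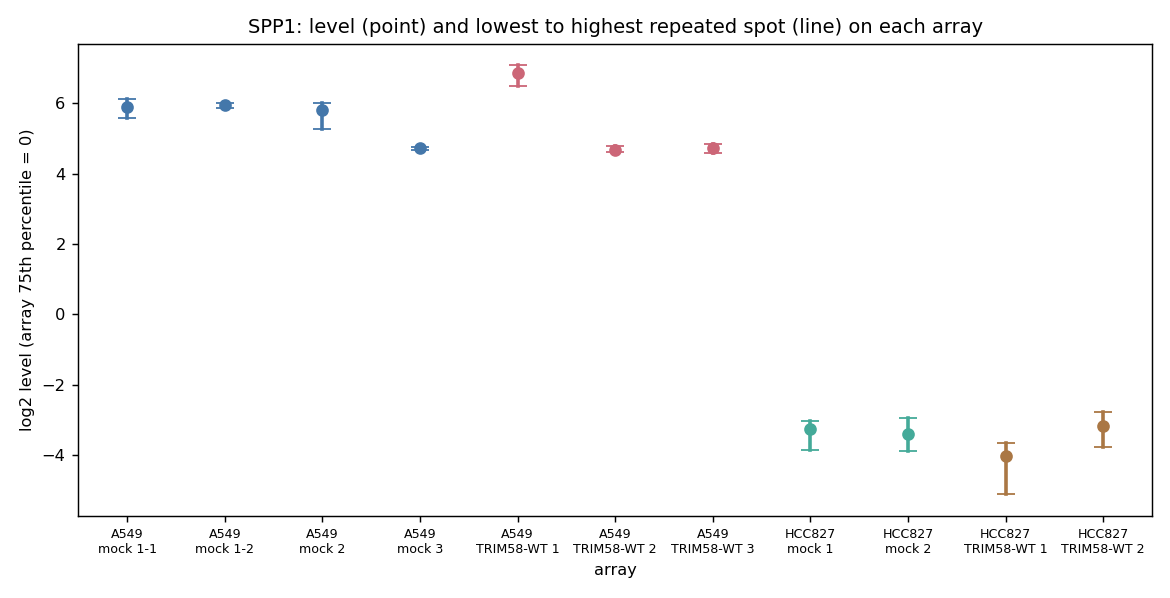
SPP1 level on each of the 11 arrays (point) with the range from its lowest to its highest repeated spot (line), as log2 with the 75th percentile of the array subtracted. The A549 arrays fall into a brighter set and a set at 4.68 to 4.72 made of mock 3 and TRIM58-WT 2 and 3, while all HCC827 arrays lie at -3.18 or lower.

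TNC showed the opposite line difference to SPP1. It was called lower in A549 mock than in HCC827 mock, which means at least 17.5-fold higher in HCC827 (measured difference -4.68, SE 0.58, adjusted p = 0.000303 by limma). THBS1 differed by 0.06 between the mock groups (95% interval -0.51 to 0.62, adjusted p = 0.875). Of 3 members tested 2 were called, 1 in each direction, with 31.8% of all genes called in this comparison. SPP1 entered the test through A549 mock alone and TNC through HCC827 mock alone. The count and its directions are therefore given as a description. All HCC827 arrays were on slide 1. With the slide 1 arrays of A549 mock alone the differences were 9.17 for SPP1 and -4.60 for TNC.

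**Figure D3:**
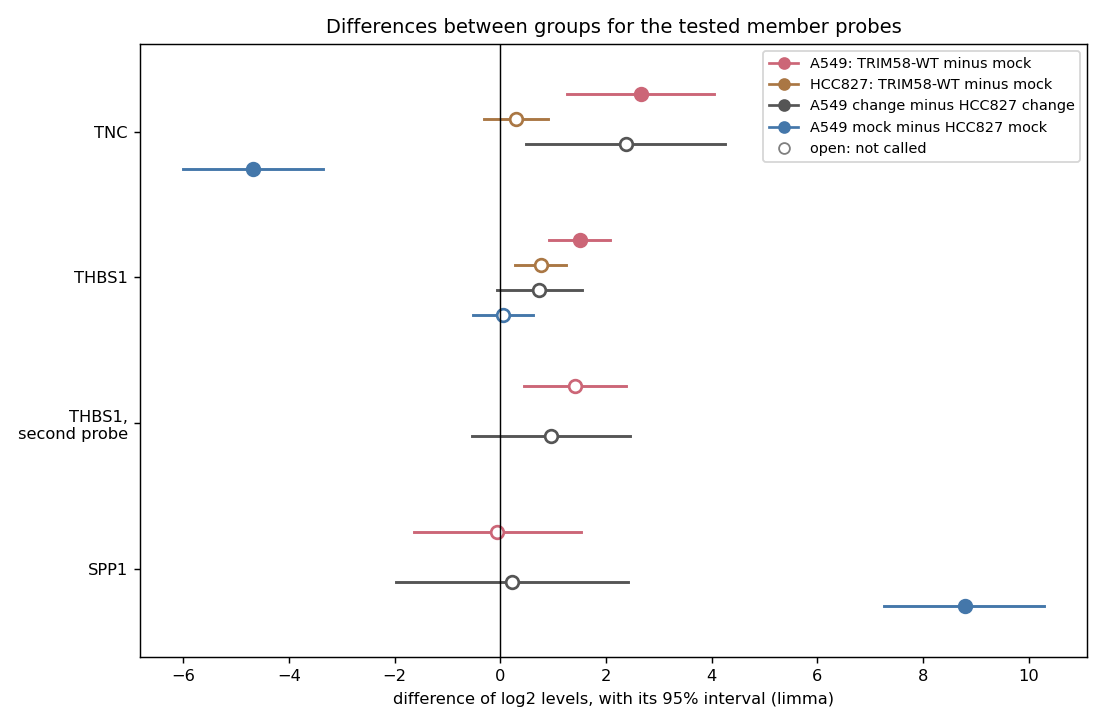
Differences of log2 levels (horizontal axis) with 95% intervals for the member probes that could be tested, in 4 comparisons marked by colour. Filled points passed the test and open points did not. TNC and THBS1 rose in A549, and TNC and SPP1 differ between the mock groups in opposite directions.

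FN1 was close to background by the probe named for it. Its 1 probe gave -5.10, -4.76, -4.15 and -4.44 in A549 mock and -1.57, -4.22 and -4.00 in A549 TRIM58-WT, and it was well above background only in TRIM58-WT 1, on both of its spots. TRIM58-WT 2 lay within the range of the mock arrays, so the groups overlapped. In HCC827 mock it gave -3.29 and -4.01 and in HCC827 TRIM58-WT -2.70 and -3.27, well above background in replicate 1 alone. The probe is assigned to 1 RefSeq transcript of the gene, and whether it detects the other FN1 transcripts was not analysed. SPARC, a collagen-binding protein of remodelling matrix, was at background on all 11 arrays. Its highest value, -1.72 on A549 TRIM58-WT 1, came from spots at -3.73 and -0.91 of which 1 was well above background, and the other 10 arrays lay between -5.08 and -3.68. The A549 groups overlapped here too. In HCC827 mock SPARC lay at -4.06 and -3.84 and in HCC827 TRIM58-WT at -4.37 and -4.81. The HCC827 groups thus did not overlap for FN1 or for SPARC, at levels that were at background apart from FN1 in TRIM58-WT 1. Of all genes tested in HCC827, 59.2% showed such a separation with 2 replicates a group. For FN1 it rested on -3.27 in TRIM58-WT 2 against -3.29 in mock 1, where the SD over spots was 0.4 and 0.485. No direction is therefore read from these 2 genes.

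POSTN, the integrin ligand periostin, lay between -4.48 and -3.0 over the 11 arrays, and THBS2, the relative of thrombospondin-1 that also restrains angiogenesis, between -4.33 and -2.95 with its main probe and between -5.40 and -4.58 with the second. Every one of these probes was at background throughout. TRIM58-WT and mock overlapped in both lines, except in HCC827 for the second THBS2 probe, a separation shown there by 59.2% of all genes tested. FN1, SPARC, POSTN and THBS2 were therefore not tested in any comparison. FN1 and SPARC thus had their highest value of all arrays on A549 TRIM58-WT 1, the array on which THBS1 and SPP1 were highest too.

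Genes typical of fibroblasts were set beside these values. Of 8 fibroblast markers, 7 were at background in all of A549 TRIM58-WT, among them COL1A2, COL3A1, DCN and PDGFRB. COL1A1 was well above it, at -1.46, 0.64 and 0.65 in replicates 1, 2 and 3, and on no A549 mock array. LUM was well above background on A549 mock 1-1, 1-2 and 2 (-0.07 to 0.07) and on no other array, and thus not on A549 mock 3 (-4.18). The summed linear level of the 8 markers was 0.377 to 1.31 in A549 mock and 0.631 to 1.97 in A549 TRIM58-WT, and its part in the TNC and THBS1 differences was not tested. None of 4 endothelial markers was well above background on any array. Of 4 leukocyte markers, the T cell gene CD3E was at background throughout, CD68 was well above it on all 11 arrays, and PTPRC and CD14 were on some. CD14 lay at 0.68 to 0.93 in A549 mock and at -2.59 to -1.84 in A549 TRIM58-WT, and CD68 at 0.67 to 1.56 and 0.31 to 0.33. The summed linear level of the 4 was 3.78 to 4.9 in A549 mock and 1.62 to 2.05 in A549 TRIM58-WT, and 4.49 to 4.52 and 6.3 to 7.25 in the HCC827 groups. Its part in the results was not tested. In bulk RNA, fewer expressing cells and less RNA per cell cannot be told apart.

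The pathway around the members was described by 4 gene lists. Among 26 other matricellular and RGD-containing ligands 13 could be tested in A549, of which 5 rose and 1 fell, with a median difference of 0.53 against 0.03 over all genes. That is 6 of 13 called, where 7.93% of all genes tested were called and 3.87% were called higher. EDIL3, CCN2 and SPOCK1 entered the test through the TRIM58-WT group alone. VTN, uncalled and named after its value was seen, entered through the mock group alone. The count, its direction and the median are therefore given as a description. SPOCK1, a secreted proteoglycan with a SPARC-like domain, rose by 4.89 (SE 1.04, adjusted p = 0.0382). Only 1 of 4 mock arrays had it well above background, and without TRIM58-WT 1 the call was lost (5.06, adjusted p = 0.062). EDIL3, an RGD-bearing integrin ligand, rose by a measured 4.21 (adjusted p = 0.000642) from a mock group below background, at least 3.67-fold. CCN5, a member of the connective tissue growth factor family, fell by 3.34 on the log2 scale (SE 0.488, adjusted p = 0.013). Its level was well above background on all A549 arrays. The other 3 called were MFGE8, FSTL1 and CCN2, which were chosen for naming after their values were seen. MFGE8 rose by 2.12 and FSTL1 by 1.69, and CCN2 was at least 2.49-fold higher, a call lost without TRIM58-WT 1 (1.3, adjusted p = 0.0578). The 6 calls became 5 without TRIM58-WT 1 and 8 without mock 3, and fell to 2 without mock 1 or TRIM58-WT 3 and to 3 without mock 2 or TRIM58-WT 2.

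No receptor of these proteins was called in A549. Of 18 integrin subunits, syndecans and other receptors 8 could be tested and limma called 0, with 4 at an unadjusted p under 0.05 (27.7% of all genes tested), and the median difference was 0.01. CD44, the osteopontin receptor, differed by 0.98 (adjusted p = 0.0291) and so stayed short of 2-fold. ITGA5, the alpha chain of the fibronectin receptor, differed by 0.88 (adjusted p = 0.109). Both were named after their values were seen. Without mock 3, TRIM58-WT 1 or TRIM58-WT 3 there was 1 receptor called.

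Of 11 TGF-beta ligands, latent binding proteins and receptors 7 could be tested, and 3 rose in A549, with a median of 0.59 and the same 7.93% of all genes called. They were TGFB2 (2.61, adjusted p = 0.0256), TGFB1 (2.60, adjusted p = 0.0369) and LTBP3 (1.5, adjusted p = 0.011), named after their values were seen. TGFB1 and TGFB2 are latent growth factors that bind in the matrix, and LTBP3 tethers them there. Lower but uncalled by limma were TGFBR1 (-0.975, adjusted p = 0.0307, short of 2-fold) and LTBP1 (-2.43, adjusted p = 0.0799). Both were named after their values were seen, and both entered the test through the mock group alone. Only 1 of 4 mock arrays had TGFB2 well above background, so it entered the test through the TRIM58-WT group alone. The count, its direction and the median of this list are therefore also a description. The 3 calls were also 3 without mock 3 or TRIM58-WT 1, although TGFB1 was no longer among them without the latter (2.76, adjusted p = 0.0542), and fell to 0 without mock 1, mock 2 or TRIM58-WT 3 and to 1 without TRIM58-WT 2. Of 15 genes for fibronectin assembly, crosslinking and cleavage 7 could be tested, 1 rose and 1 fell, again against 7.93%, and the median was -0.01. MMP7, the protease matrilysin that cleaves fibronectin and osteopontin, fell by 5.28 on the log2 scale (SE 0.935, adjusted p = 0.0231). LOXL2, a crosslinking amine oxidase named after its value was seen, rose by 1.72 (adjusted p = 0.0287), a call lost without TRIM58-WT 1 (1.70, adjusted p = 0.0517). The 2 calls fell to 0 without mock 1, mock 2, TRIM58-WT 2 or TRIM58-WT 3 and rose to 4 without mock 3.

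In HCC827 limma called 0 genes in each of the 4 lists, with 12 ligands, 9 receptors, 6 TGF-beta genes and 10 assembly genes tested. At an unadjusted p under 0.05 there were 6, 5, 1 and 5, where 21.8% of all genes tested had such a p, and the methods' t-test called no probe at all in HCC827. The medians were 0.35, 0.45, 0.25 and 0.49 against 0.01 over all genes. The change differed between the lines, by the test of the difference that called 4.61% of all genes, for 4 of 15 ligands (EDIL3, MFGE8, CCN3 and CCN5), 0 of 9 receptors with 2 at an unadjusted p under 0.05, 0 of 8 TGF-beta genes with 6 at it, and 1 of 10 assembly genes (PLAU, the urokinase protease, named after its value was seen). Over all genes 20.8% had such a p. EDIL3 was at background in A549 mock and CCN3 in A549 TRIM58-WT, so the sizes of their differences are uncertain. The count of ligands is therefore given as a description.

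**Figure D4:**
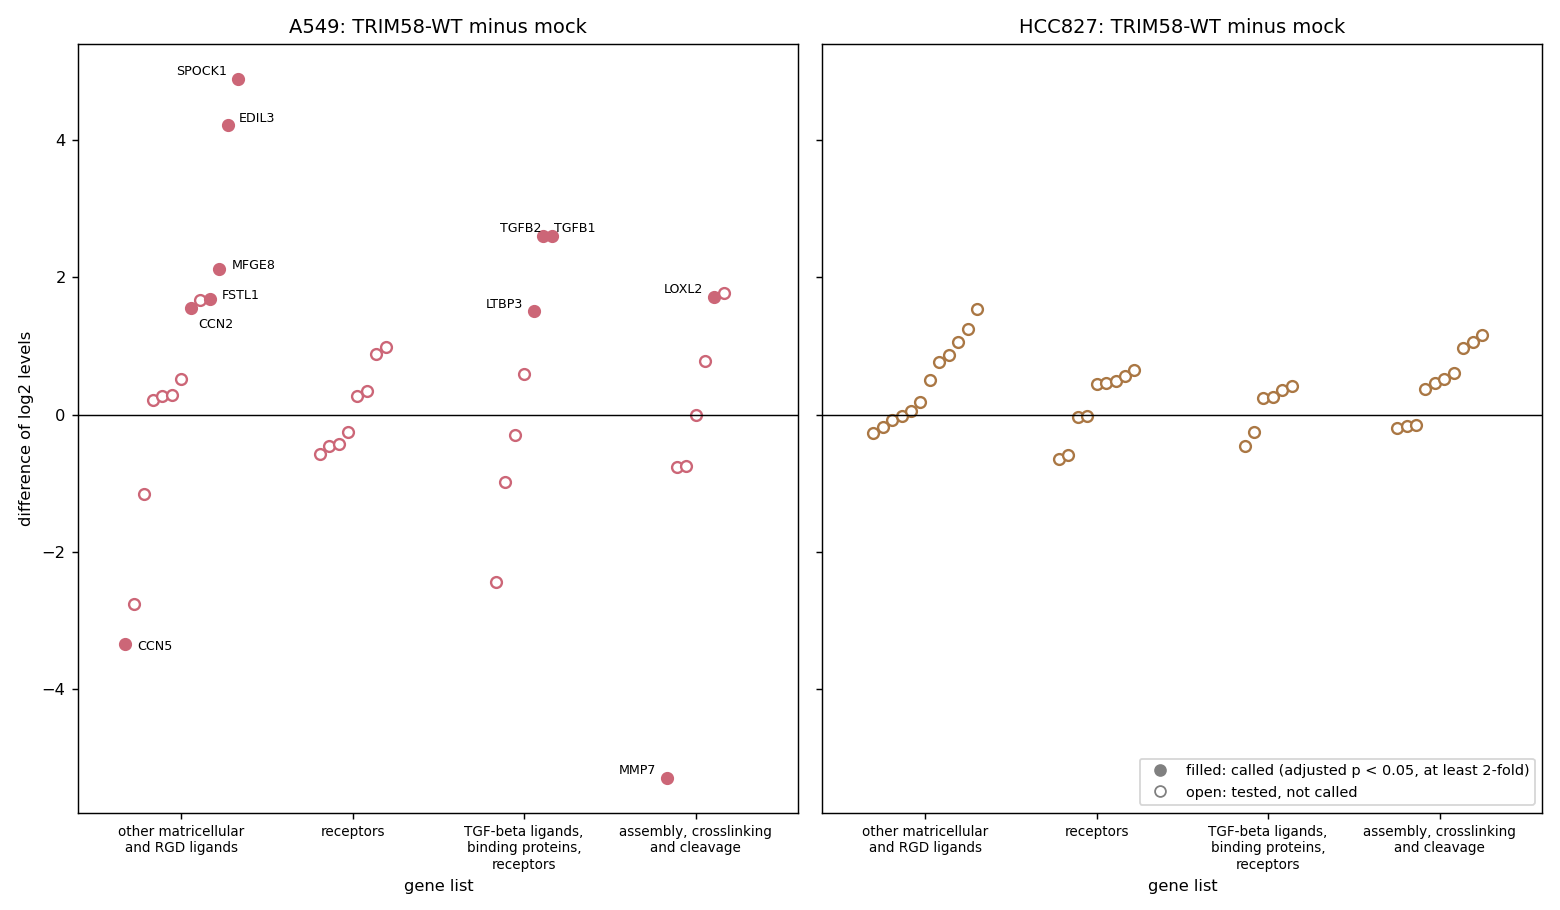
Differences of log2 levels between TRIM58-WT and mock (vertical axis) in A549 (left) and HCC827 (right) for every tested gene of the 4 lists (horizontal axis). Filled points with a symbol passed the test and open points did not. In A549, SPOCK1 and EDIL3 lie highest and MMP7 lowest, and no gene passed in HCC827.

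Between the mock groups the lists differed in both directions, in a comparison that called 31.8% of all genes. Of 14 ligands tested 8 were called, 4 higher and 4 lower in A549, and of 9 receptors 5, with 2 higher and 3 lower. SMOC1, a SPARC relative, was at least 74.8-fold higher in A549 mock (adjusted p = 0.000231), and CCN5 was higher by 5.55 on the log2 scale (adjusted p = 4.28e-05). MMP7 was higher by 5.31 (adjusted p = 0.00197). DPP4, a cell surface peptidase that also binds fibronectin, was at least 28.8-fold higher in HCC827 mock (adjusted p = 6.3e-07). Of 8 TGF-beta genes 5 were called and of 10 assembly genes 7. SMOC1, DPP4 and other called genes of these lists entered the test through their brighter group alone, so these counts are a description.

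The genes whose pattern over the 10 replicates was most like that of each member were found among 12811 genes by the root mean square difference of log2 values, each gene centred on its own mean. For TNC they were LINC00839 (0.47), TCEAL6 (0.57) and PRDM8 (0.64), where TNC itself ranged over 5.37. LINC00839, a long non-coding RNA, went from -4.46 in A549 mock to -1.19 in A549 TRIM58-WT and lay at 1.25 and 0.94 in HCC827. For THBS1, ranging over 2.08, they were PFKFB3 (0.18), SH2B3 (0.23) and CMTM1 (0.24). PFKFB3, a regulator of glycolysis, lay at 2.09 in A549 mock, 3.31 in A549 TRIM58-WT, 1.87 in HCC827 mock and 2.60 in HCC827 TRIM58-WT. For SPP1, ranging over 10.9, they were CA12 (0.59), CLDN2 (0.62) and UGT2B10 (0.64). CA12, a carbonic anhydrase, lay at 3.48 and 2.56 in the A549 groups and at -5.17 and -5.32 in HCC827. The likeness is a description over replicates that share lines and slides.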

How the data were processed

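RNA from 11 samples was labelled with Cy3 and hybridised to 1-colour Agilent SuperPrint G3 arrays. The authors deposited scanner output with a background-corrected intensity per spot, made with Agilent Feature Extraction 11.5.1.1 per the file headers, while the submitters' processing notes name version 10.7. A deposited log2 value table was used as an alternative. After subtraction of a baseline per probe, 95.5% of its values lay within 0.01 of log2 intensity minus the 75th percentile, and the largest gap over the member probes was 0.577. Its baseline is not given in the sources used here, its column medians ran from -0.13 to 0.46, and its direction was that of the scanner values.

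Spots of a probe were averaged without control and outlier spots, put on the log2 scale and set relative to the array's 75th percentile. 28 probe values were missing, none of a member, and no spot was saturated. 27241 of 42405 probes were named through RefSeq accessions (GRCh38.p14), and the brightest probe stood for a gene. The members and lists were chosen with earlier results of these data known. A549 mock arrays 1-1 and 1-2, of the same control cell, were averaged to 1 replicate. A probe was tested where it was well above background throughout at least 1 of the compared groups, with limma 3.58.1 in R 4.3.3, with each line alone, and with all 10 replicates in 1 fit for the mock groups and for the difference between lines. Calls needed a Benjamini-Hochberg adjusted p under 0.05 over all probes and at least a 2-fold change (for the difference between lines, the p alone). The labels do not say that replicates are separate cultures, so p-values measure the spread between these samples, which may be technical. The number of arrays limits precision.

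"At least N-fold" sets the mean of the brighter group against, per array of the dim group, the higher of the probe's own level and the lowest level well above background. It bounds the difference of the means, not that of single replicates, and carries no interval. Named were all member probes, TRIM58, the 3 genes most alike to each tested member, and at most the 4 called list genes with the largest change in a comparison. Further genes are marked in the text. In simulated data, in which 200 probes had a log2 change of 2, limma called 69% of them in the A549 design among 16923 probes, 57.5% in the HCC827 design among 19563, and 41% for the difference between lines among 20641. The simulated noise was drawn independently for each probe and replicate, and no other probe changed. Both differ from the real arrays, so these shares do not measure sensitivity there. Alternatives were other scalings, background correction, filters, the value table, blocks, a Welch t-test (the methods' t-test) and leaving out replicates. The test that the study ran on its arrays is not named in its methods. Figures were drawn with matplotlib 3.10.9.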

Additional observations from a re-analysis of the deposited data

Results flagged for a closer look

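Genes named beside the members changed differently in A549 and HCC827 by the limma test of the difference itself, given as the A549 change minus the HCC827 change on the log2 scale. EDIL3 differed by a measured 4.48 (adjusted p = 0.000487), from a measured 4.21 in A549 and -0.26 in HCC827. Its A549 mock group was at background, so EDIL3 was at least 3.67-fold higher in A549 TRIM58-WT and the measured sizes are uncertain. MFGE8 differed by 2.31 (adjusted p = 0.0128), from 2.12 and -0.19. CCN5 differed by -4.60 (adjusted p = 0.0112), from -3.34 and 1.25. CCN3 differed by a measured -4.25 (adjusted p = 0.0277), with group means of -1.11 and -4.30 in A549 mock and TRIM58-WT and of -2.51 and -1.45 in HCC827. A549 TRIM58-WT was at background here, so CCN3 was at least 2.86-fold lower in it, with 3 of 4 mock arrays well above background. PLAU differed by -1.80 (adjusted p = 0.0271), from -0.75 and 1.05. LINC00839 and TCEAL6, whose patterns were most like that of TNC, differed by a measured 3.57 and 2.57. They were picked for following TNC over these same replicates, so their difference comes with the choice and no p is given. LINC00839 was at background in A549 mock, which makes its A549 change at least 3.24-fold. The difference passed the test under 8 of 21 alternatives for PLAU and 8 of 20 for CCN3, and under 20 of 21 for CCN5, 17 of 20 for MFGE8 and 20 of 20 for EDIL3. The within-line changes of EDIL3, MFGE8 and CCN5 were called in A549, and none of the 7 genes was called in HCC827.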

How the results depend on the processing

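The calls of TNC and SPP1 between the mock groups kept their direction and passed under every alternative run, except that neither could be tested where probes had to be well above background on every array, which left 0 members called. The 2 members called in A549 remained 2 with the authors' table, both lines in 1 fit, the mock arrays 1-1 and 1-2 used separately or singly, and the slide as a block. They fell to 1 with quantile normalization, median scaling, the other THBS1 probe and the filter on every array, and to 0 with normexp, no filter, the methods' t-test and TRIM58-WT 2 and 3 averaged. Leaving out 1 replicate gave 0 to 2 members in A549 and 0 to 1 for the difference between lines, where TNC passed without TRIM58-WT 1. TNC and THBS1 kept their direction in A549 under every alternative, between 0.82 and 4 and between 0.88 and 1.98. HCC827 had 0 members called throughout. The cause of these changes was not tested.

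The uncalled SPP1 change in A549 turned positive with the slide as a block (0.0323), with TRIM58-WT 2 and 3 averaged (0.31), and without mock 1 (0.17), mock 2 (0.11), TRIM58-WT 2 (0.32) or TRIM58-WT 3 (0.30), with -0.78 to 0.32 over the replicates left out in turn. Its difference between lines turned negative with median scaling (-0.17), normexp (-0.19) and without mock 3 (-0.15), A549 TRIM58-WT 1 (-0.50) or HCC827 TRIM58-WT 1 (-0.20), with -0.50 to 0.65 over the replicates left out. The uncalled THBS1 difference between the mock groups turned negative without A549 mock 3 (-0.12) or HCC827 mock 2 (-0.0117), with -0.12 to 0.18 over the replicates left out. None of these passed the test under any alternative. The list genes called in A549 and for the difference, and the 4 named between the mock groups, kept their direction under all alternatives, which for the list genes and list counts were added after seeing the data. Of the 11 called in A549, median scaling ended the calls of 3 (CCN2, LOXL2 and LTBP3), normexp of 4 (CCN2, EDIL3, MFGE8 and TGFB2), no filter of 6 (CCN2, LOXL2, MMP7, SPOCK1, TGFB1 and TGFB2), TRIM58-WT 2 and 3 averaged of 7, the replicate block of 1 (CCN2) and the methods' t-test of all 11. Of the 7 that could be tested with the filter on every array all 7 were called, and leaving out 1 replicate ended between 0 and 9. In HCC827 list genes were called with median scaling (2 ligands and 1 assembly gene), the filter on every array (2 and 2), normexp, both lines in 1 fit and without TRIM58-WT 2 (1 ligand each).

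With median scaling the genes called higher and lower went from 40 and 90 to 196 and 255 in HCC827 and from 270 and 320 to 109 and 290 for the difference. Over all probes the 1171 calls in A549 ranged from 24 (the methods' t-test) to 2193 (without mock 3), the 173 in HCC827 from 0 to 650 (median scaling), the 5871 between mock groups from 3003 to 6318, and the 794 for the difference from 224 to 2213. The replicate numbers did not pair the samples. The deviations of same-numbered A549 replicates correlated at 0.50, -0.42 and 0.50 and those of HCC827 at 0.08. Across numbers, A549 mock 3 correlated with TRIM58-WT 2 at 0.57 and mock 2 with TRIM58-WT 1 at 0.405. Mock 3 correlated with TRIM58-WT 1 at -0.59, and mock 1 and 2 correlated negatively with TRIM58-WT 2 and 3. Deviations were taken from the mean of each group, so the correlations of 1 sample with the other group cannot all share a sign. With 2 replicates a group, the HCC827 values can differ only in sign. Within that limit, A549 mock 1, mock 2 and TRIM58-WT 1 stood apart from mock 3 and TRIM58-WT 2 and 3, a division across the labels. Its part in the A549 results was not tested. With the replicate block TNC gave 2.66 (adjusted p = 0.0419) and THBS1 1.5 (0.0394) in A549, and no member call changed. All probes called were 1122 in A549, 0 in HCC827 and 322 for the difference under that block.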
